A study of Mus musculus with 3 samples.

Results

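Protein kinase A (PKA) and the phosphodiesterase-4 (PDE4) enzymes were examined in RAW 264.7 cells, a mouse macrophage line, as 10 genes: the PKA regulatory subunits *Prkar1a*, *Prkar1b*, *Prkar2a* and *Prkar2b*, the PKA catalytic subunits *Prkaca* and *Prkacb*, the phosphodiesterases *Pde4a*, *Pde4b* and *Pde4d*, and the adenylyl cyclase *Adcy7*. All gene probes that carry one of these names were taken, which gave 32 of the 56605 gene probes and 10 of the 26728 named genes of the microarray. *Prkar2b* was chosen by its own measured signals, for a large fall with CRL1505 and not with CRL1506, so its values are a description. The other 9 genes belong to the same families or, as *Adcy7*, supply their cAMP. *Pde4c*, a further PDE4 gene, is not among the 10 and was counted with the other phosphodiesterases below.

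The macrophages were given LPS, the lipopolysaccharide of Gram-negative bacteria that activates TLR4, in all of the 3 groups. One group had LPS alone (LPS), one had *L. rhamnosus* CRL1505 before it (CRL1505 + LPS), and one had *L. plantarum* CRL1506 before it (CRL1506 + LPS). The lactobacilli were present for 24 h at 50000000 cells/mL, and LPS was used at 50 ng/mL for 12 h by the series' design, or 3 h by the sample descriptions. The RNA of each group was hybridised to 1 array, so no difference has a replicate check, and neither a test nor a p-value is given. None of the 3 arrays is of cells without LPS, so the effect of LPS itself cannot be measured here.

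In this pathway, Gs-coupled receptors activate adenylyl cyclases, which make cyclic AMP (cAMP). The regulatory subunits of PKA hold its catalytic subunits inactive until they bind cAMP, and the freed catalytic subunits phosphorylate CREB and many other proteins. PDE4 enzymes break cAMP down. In macrophages, cAMP is known to lower the production of TNF-α and to raise that of IL-10 after LPS, and *Pde4b* is known as an LPS-induced gene.

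Of the 32 probes, 16 were well above background on all arrays, 6 on some of them, and 10 on none. All 10 genes had at least 1 probe above background on at least 1 array, and each was represented by its brightest probe. All 10 macrophage markers, among them *Csf1r*, *Cd14* and *Adgre1*, were well above background on every array. Of the markers of other cells, 4 of the 5 T cell markers and 2 of the 4 B cell markers were also above background on every array, while *Cd8a* and *Cd79a*, among others, were not. Of the fibroblast and epithelial markers, 1 of 8 was above background with LPS, 1 of 8 with CRL1505 + LPS, and 4 of 8 with CRL1506 + LPS, and their part in the results was not tested. Levels are given as the log2 processed signal minus the 75th percentile of the array, since the arrays differed in brightness (the percentile lay at 743.1, 517.0 and 697.9 in the order of the groups above). LPS and CRL1506 + LPS were hybridised on a common slide and CRL1505 + LPS on a different slide with its own scan run, so strain and slide cannot be told apart in the ratios of CRL1505 + LPS.

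The brightest probes lie mostly in 3′ untranslated sequence, near the end of the transcripts, and their letters are not shown. Some of the probes placed in coding sequence are shown here, because several of them gave other ratios than the probes near the 3′ end. Coding or untranslated placement was judged from reading frames and the position in the transcript, without an annotation. Positions are bases along the transcript and mm9 coordinates, as the files give them. The letters are those of the probes, 5′ to 3′ along the transcript, and capitals mark the stop codon that ends the coding sequence.
Prkar1a base 925: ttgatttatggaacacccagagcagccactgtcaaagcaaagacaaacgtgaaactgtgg
Prkaca base 1024: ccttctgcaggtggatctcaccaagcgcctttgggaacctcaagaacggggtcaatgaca
Prkacb base 1124: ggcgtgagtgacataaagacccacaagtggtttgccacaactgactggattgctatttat
Pde4b base 2391: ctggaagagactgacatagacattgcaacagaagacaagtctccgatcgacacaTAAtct
Pde4d base 605: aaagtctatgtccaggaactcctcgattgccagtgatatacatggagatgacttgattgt
Pde4d base 2364: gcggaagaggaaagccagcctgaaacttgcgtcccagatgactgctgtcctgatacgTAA
The *Prkar1a* probe lies at chr11:109524326-109524385 and the *Pde4b* probe at chr4:102277888-102277947, both on the plus strand. The *Prkacb* probe lies at chr3:146400907-146400966 on the minus strand. The *Prkaca* probe lies at chr8:86518744-86518802 on the plus strand, where its 60 bases cover 59 bases of the genome. The *Pde4d* probe at base 605 covers chr13:110530748-110547805, 17058 bases with an intron between its ends, and the probe at base 2364 lies at chr13:110741493-110741552.

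**Figure D1:**
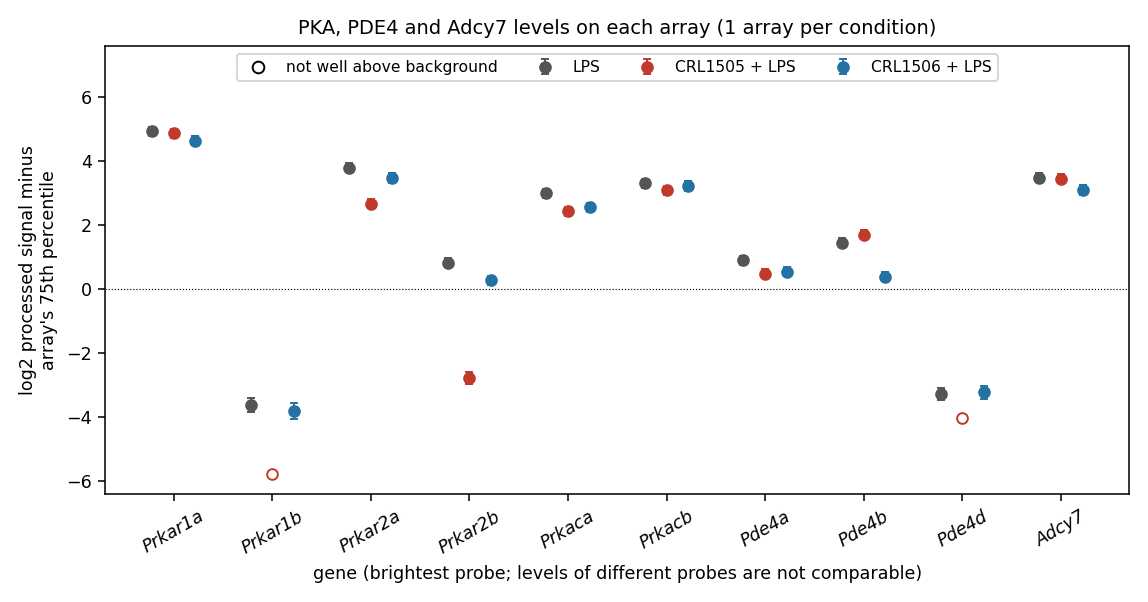
Level of the brightest probe of each gene on each array, as the log2 processed signal minus the 75th percentile of the array, with the error the scanner software gives for the spot. Open circles are not well above background. *Prkar2b* stood at -2.79 with CRL1505 + LPS against 0.82 with LPS and 0.27 with CRL1506 + LPS, and *Pde4b* was lowest with CRL1506 + LPS.

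*Prkar2b*, which encodes the RIIβ subunit of PKA, gave a processed signal of 1314 with LPS, 74.7 with CRL1505 + LPS and 842 with CRL1506 + LPS. Its signal was thus low on the CRL1505 + LPS array alone, although still well above background there. After scaling, it was 12.2-fold lower with CRL1505 + LPS than with LPS (log2 ratio -3.61, with an error of 0.23 from the scanner software) and 1.47-fold lower with CRL1506 + LPS than with LPS (-0.55, error 0.20). Between the strains, it was 8.35-fold lower with CRL1505 + LPS (-3.06, error 0.23). Under 12 other ways of processing, the ratio of CRL1505 + LPS to LPS stayed past 2-fold. It ranged from -4.12 with scaling to spike-in RNA to -2.89 with normexp background correction followed by quantile normalization. The filters on dim, outlier or uneven spots and the mean over probes left it unchanged. The gene has 1 probe, at base 3276 of its transcript (chr12:32643366-32643425, minus strand), so no other probe can be set beside it. The signal is of RNA from whole cultures, where fewer cells with the transcript and less transcript per cell cannot be told apart.

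Among the 15547 genes compared between CRL1505 + LPS and LPS, *Prkar2b* was the 19th from the lowest, bounds included. Of the 13062 genes measured on all arrays, 3 had a lower ratio there, 2 had a lower ratio between CRL1505 + LPS and CRL1506 + LPS, and 1031 had a lower ratio between CRL1506 + LPS and LPS. The 5 genes closest to it in the pair of log2 ratios against LPS were *Cxcr3*, *Tk1*, *Hist1h1b*, *Rnf150* and *Hist1h1d*, by Euclidean distance over the 3 arrays. *Cxcr3*, a chemokine receptor, was the closest at a distance of 0.42, with ratios of -3.23 and -0.73. *Tk1* encodes thymidine kinase and had ratios of -3.04 and -0.58, *Hist1h1b* and *Hist1h1d* encode linker histones, and *Rnf150* a RING finger protein. The distances of these last 4 ranged from 0.58 to 0.65.

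*Prkar2a*, which encodes the other type II regulatory subunit (RIIα), was low on the same array. Its brightest probe, at base 3961, gave 10324 with LPS, 3282 with CRL1505 + LPS and 7737 with CRL1506 + LPS. It was 2.19-fold lower with CRL1505 + LPS than with LPS (log2 ratio -1.13, error 0.20), 1.25-fold lower with CRL1506 + LPS than with LPS (-0.33), and 1.75-fold lower with CRL1505 + LPS than with CRL1506 + LPS (-0.80). The probes at bases 3051 and 4907 gave signals of 786 and 5578 with LPS, of 282 and 2036 with CRL1505 + LPS, and of 651 and 4543 with CRL1506 + LPS. Their ratios of CRL1505 + LPS to LPS, -0.95 and -0.93, fell just short of 2-fold. Hence all 3 probes had their lowest level with CRL1505 + LPS, and they differed by less (SD 0.11) than the typical gene with several probes (median SD 0.23). The ratio of the brightest probe was past 2-fold under 11 of 12 other settings and was -0.83 when arrays were scaled by their median. Its ratio between the strains ranged from -1.20 to -0.31 and was past 2-fold in 4 of 12. Of these settings, the filters on dim, outlier or uneven spots left both ratios unchanged. A further probe, at base 622, was above background on no array.

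*Prkar1a*, which encodes the type I subunit RIα, stayed short of 2-fold at both of its measured probes. It gave 22624 with LPS, 15150.4 with CRL1505 + LPS and 17323 with CRL1506 + LPS at base 1553. After scaling, this was a log2 ratio of -0.06 with CRL1505 + LPS (0.24 when arrays were scaled by their median) and -0.29 with CRL1506 + LPS. The coding probe at base 925 gave 3175, 1851 and 2535, and ratios of -0.26 and -0.23. All 4 ratios were within 1.23-fold, and the differences between the arrays were of the order of the software's error of 0.20.

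*Prkar1b*, which encodes RIβ, known mainly from the nervous system, was near background. At base 2559 it gave 60.4 with LPS, 50.0 with CRL1506 + LPS, and a signal of 9.44, not above background, with CRL1505 + LPS. It was at least 1.42-fold lower with CRL1505 + LPS than with LPS, a bound taken against the lowest signal that was well above background on that array, and the ratio of CRL1506 + LPS to LPS was -0.18 (error 0.33). With the dim signal taken as measured, the ratio of CRL1505 + LPS to LPS was -2.16. The probe at base 518 was not above background on any array.

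The catalytic subunits were measured by a probe in the coding sequence and another near the 3′ end, and these did not give the same ratio. For *Prkaca*, which encodes Cα, the brightest probe at base 2101 gave 5921 with LPS, 2795 with CRL1505 + LPS and 4122 with CRL1506 + LPS, which after scaling were log2 ratios of -0.56 and -0.43 against LPS. The first was -1.07 with scaling to spike-in RNA and short of 2-fold under 11 other settings, some of which left it unchanged. The coding probe at base 1024 gave 216, 68.4 and 209, and ratios of -1.13 (error 0.25) and 0.04 (error 0.22). With CRL1505 + LPS both probes were lower than with LPS, but 2-fold was reached in the coding sequence alone.

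For *Prkacb*, which encodes Cβ, the brightest probe at base 3972 gave 7369.9 with LPS, 4409 with CRL1505 + LPS and 6528 with CRL1506 + LPS. Its log2 ratios against LPS were -0.22 and -0.08 (error 0.20), and under other settings both took the opposite sign (up to 0.08 with scaling by the median, and up to 0.16 with the mean over probes). The coding probe at base 1124, by contrast, gave 877, 298 and 1096, and ratios of -1.04 and 0.41 (error 0.21 and 0.20). At that probe, CRL1505 + LPS was 2.73-fold lower than CRL1506 + LPS (-1.45), whereas at the brightest probe the difference was -0.13. Which probe stands for the gene therefore decides whether *Prkaca* and *Prkacb* pass 2-fold.

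**Figure D2:**
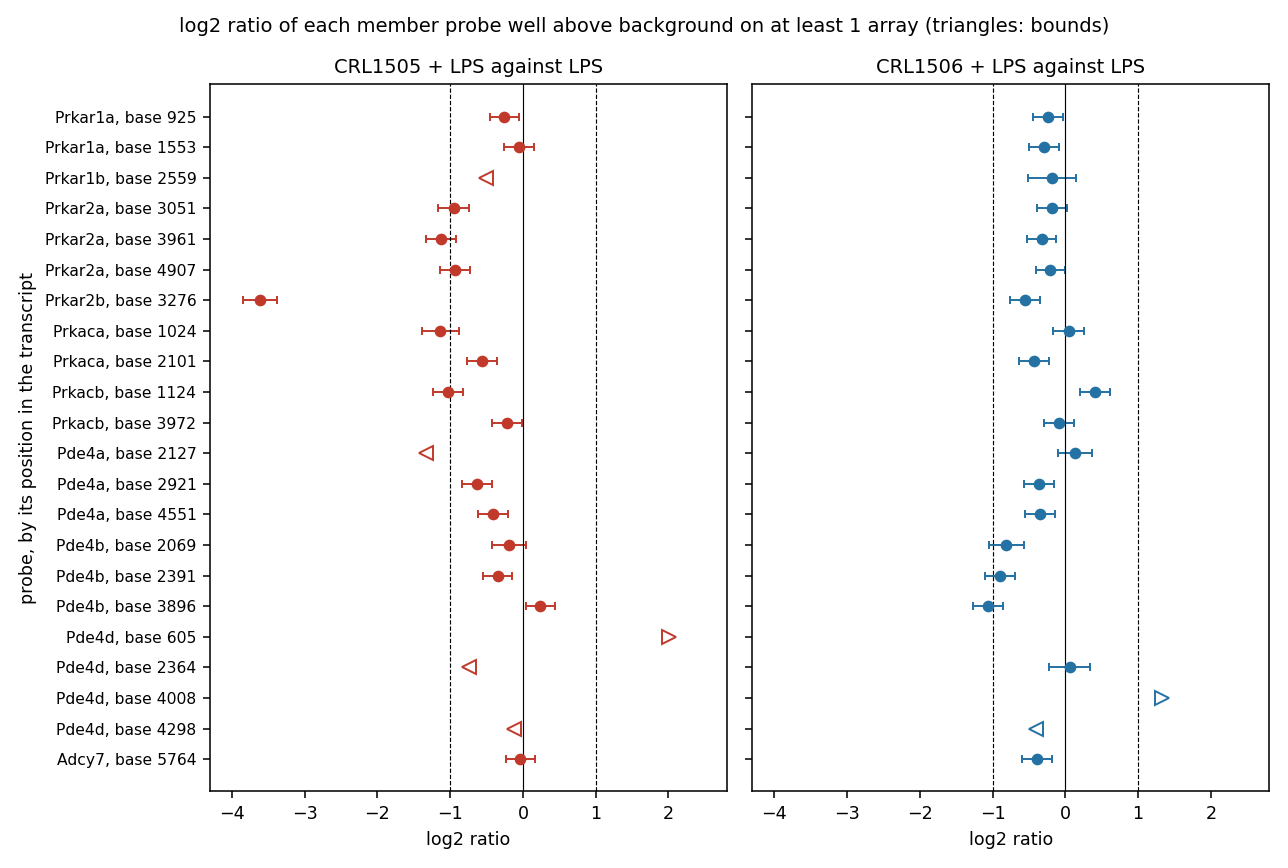
log2 ratio against LPS for the 22 member probes well above background on at least 1 array, ordered by gene and by position along the transcript. Circles carry the software's error of the ratio, open triangles are bounds and point away from 0, and dashed lines mark 2-fold. The 3 *Prkar2a* probes lie between -1.13 and -0.93 with CRL1505 + LPS, while the upstream probes of *Prkaca* and *Prkacb* lie at -1.13 and -1.04 and their downstream probes at -0.56 and -0.22.

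The direction of this probe difference was shared by many transcripts on the arrays. Over 1345 transcripts with a pair of probes over 1500 bases apart and above background on all arrays, the log2 ratio of the upstream probe minus that of the downstream probe had a median of -0.27 for CRL1505 + LPS against LPS, 0.23 for CRL1506 + LPS against LPS, and -0.48 for CRL1505 + LPS against CRL1506 + LPS. Over 908 transcripts with probes up to 500 bases apart, these medians were -0.04, -0.03 and -0.02, and over 1383 transcripts with probes between these distances they were -0.11, -0.00 and -0.10. The upstream probe was the lower one in 71.0% of the transcripts with distant probes for CRL1505 + LPS against LPS and in 27.3% for CRL1506 + LPS against LPS.

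Of the members, 6 had a pair of probes of the same transcript, over 1500 bases apart in 3 of them. In that class the log2 ratio of CRL1505 + LPS to LPS differed by -0.82 in *Prkacb* (2848 bases), by -0.59 in *Pde4b* (1505 bases) and by -0.22 in *Pde4a* (1630 bases). In the class of 500 to 1500 bases it differed by -0.57 in *Prkaca* (1077 bases) and by -0.20 in *Prkar1a* (628 bases), while *Prkar2a* had the opposite sign, with 0.18 over 910 bases. For CRL1506 + LPS against LPS, *Prkacb* differed by 0.50, on the side of the median of its class, and *Prkaca* by 0.48, where the median of its class was -0.00. *Prkacb* and *Prkaca* stood outside the quartiles of all transcripts of their classes in each of the 3 comparisons. No measure of RNA integrity was used here, and the part of RNA quality and of probe position in the members' ratios was not tested. For *Prkar2b*, which has 1 probe, no difference between probes can be taken.

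**Figure D3:**
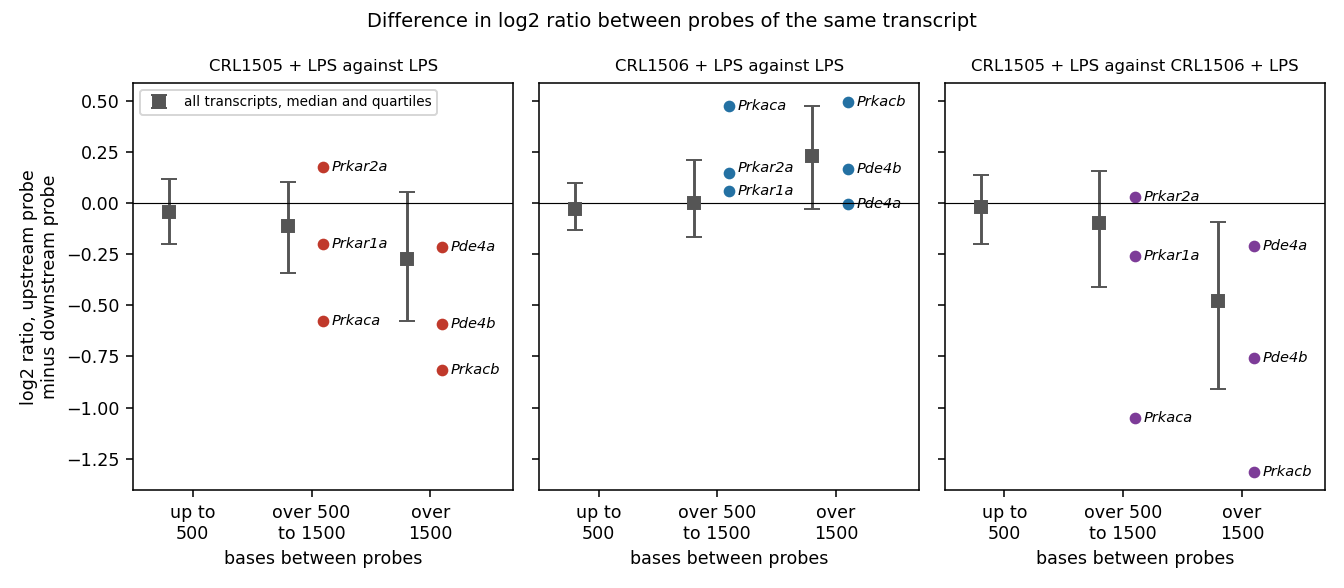
Difference in log2 ratio between the most upstream and the most downstream probe of the same transcript, by the distance between them in bases. Squares are medians over all such transcripts with their quartiles, and circles are member genes. *Prkacb* lies at -0.82 for CRL1505 + LPS against LPS and at 0.50 for CRL1506 + LPS against LPS, on the same side of 0 as the medians of its class (-0.27 and 0.23).

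Among the phosphodiesterases, *Pde4b* was past 2-fold with CRL1506 + LPS. Its brightest probe, at base 3896, gave 2036 with LPS, 1673 with CRL1505 + LPS and 916 with CRL1506 + LPS. It was 2.09-fold lower with CRL1506 + LPS than with LPS (log2 ratio -1.06, error 0.20) and 2.47-fold higher with CRL1505 + LPS than with CRL1506 + LPS (1.30), and between CRL1505 + LPS and LPS it had a ratio of 0.24. The level was therefore low on the CRL1506 + LPS array alone.

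The other measured *Pde4b* probes were also lowest with CRL1506 + LPS after scaling. The coding probe at base 2391 gave 1162 with LPS, 635 with CRL1505 + LPS and 587 with CRL1506 + LPS, which were log2 ratios of -0.35 and -0.89 against LPS. The probe at base 2069 gave 166, 101 and 88.8, and ratios of -0.19 and -0.81; its spot on the LPS array was uneven, that is, the mean of its pixels exceeded their median by more than 0.2 on the log2 scale. Between the strains these probes had ratios of 0.54 and 0.62, less than 2-fold. The fall with CRL1506 + LPS of the brightest probe was close to the threshold. It ranged from -1.26 to -0.92 over 12 other settings and was past 2-fold in 7 of them, and the difference between the strains was past 2-fold in 10 of 12, with a lowest value of 0.82 for the mean over probes. Of these settings, the filters on dim, outlier or uneven spots left both values unchanged. The sign of the ratio of CRL1505 + LPS to LPS turned with scaling to spike-in RNA (-0.27) and with the mean over probes. The remaining 3 *Pde4b* probes, at bases 281, 570 and 843 and thus toward the 5′ ends of its transcripts, were above background on no array.

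*Pde4a* stayed short of 2-fold at its brightest probe. At base 4551 it gave 1384 with LPS, 722 with CRL1505 + LPS and 1018 with CRL1506 + LPS, and log2 ratios of -0.42 and -0.35 against LPS (error 0.20). The probe at base 2921 gave 676, 304 and 496, and ratios of -0.63 and -0.36. At base 2127 the signals were 108 with LPS and 111 with CRL1506 + LPS, but 22.4 with CRL1505 + LPS, which was not well above background, so that probe was at least 2.53-fold lower with CRL1505 + LPS than with LPS. The mean over the probes, which takes in that bound, was -0.79 for CRL1505 + LPS against LPS. No *Pde4a* probe was higher with CRL1505 + LPS than with LPS.

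*Pde4d*, which makes long and short forms of the enzyme from several promoters, was dim, and its probes went different ways. At base 2364, where the coding sequence ends, the signal was 76.4 with LPS and 74.8 with CRL1506 + LPS, a log2 ratio of 0.06 (error 0.28). Over other settings the ratio ranged from -0.16 to 0.33. The 0.33 is the mean over probes, which takes in bounds of other probes. With CRL1505 + LPS the signal at base 2364 was 31.8, which was not well above background. This probe was thus at least 1.67-fold lower with CRL1505 + LPS than with LPS. At base 605, the probe that crosses an intron gave 93.3 with CRL1505 + LPS, while it was not well above background with LPS (32.9) or CRL1506 + LPS (30.5).

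That probe was at least 4.02-fold higher with CRL1505 + LPS than with LPS and at least 3.81-fold higher than with CRL1506 + LPS. A probe of another transcript, at base 4008, was above background with CRL1506 + LPS alone, where it gave 78.6 against 6.93 with LPS and 9.38 with CRL1505 + LPS, at least 2.51-fold higher than with LPS. At base 4298 the signal was above background with LPS alone (46.3), with 14.4 and 32.5 on the other arrays. No *Pde4d* probe was above background on all 3 arrays, 4 of 8 were above it on none, and no direction is given for the gene. For CRL1505 + LPS against LPS, the brightest probe gave a bound of -0.74. The mean over its probes gave 0.38, but it averages bounds of opposite sign and so estimates no ratio.

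*Adcy7*, an adenylyl cyclase of blood and immune cells, had 1 probe, at base 5764, which gave 8332 with LPS, 5657 with CRL1505 + LPS and 5978 with CRL1506 + LPS. Scaling brought these to log2 ratios of -0.04 with CRL1505 + LPS (0.26 when arrays were scaled by their median) and -0.39 with CRL1506 + LPS (error 0.20), both short of 2-fold. Between the strains the ratio was 0.35, and it was -0.05 with scaling to spike-in RNA. On the LPS array, 6 of the 20 spots nearest to it were uneven.

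Set beside all genes, 2 of the 10 members (*Prkar2a* and *Prkar2b*) were at least 2-fold lower with CRL1505 + LPS than with LPS, where 8.43% of 15547 genes were, and none was at least 2-fold higher, where 9.91% were (18.3% either way). Nothing is read from this count, since *Prkar2b* was chosen for its fall. With CRL1506 + LPS against LPS, 1 of 10 (*Pde4b*) was at least 2-fold lower, where 3.54% of 16223 genes were, and none was higher, where 5.65% were (9.18% either way). Between CRL1505 + LPS and CRL1506 + LPS, 1 of 10 was higher (*Pde4b*) and 1 lower (*Prkar2b*), where 9.01% and 7.45% of 15722 genes were.

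The median log2 ratio of the members was -0.46 with CRL1505 + LPS against LPS (0.01 over all genes), -0.34 with CRL1506 + LPS against LPS (-0.06 over all genes), and -0.13 between the strains (0.03 over all genes). Both comparisons against LPS share the LPS array. Of the 10 ratios, 9 were below 0 with either strain, among them that of *Prkar2b*, which was chosen for its fall. With CRL1505 + LPS against LPS, 2 of the 10 were bounds. Nothing is read from these counts. Without bounds, the median over all genes was 0.06 for CRL1505 + LPS against LPS. Scaling by the median of the arrays moved it to 0.35 and left 6 of 10 members below 0. With scaling to spike-in RNA it was -0.45, and all 10 members were below 0.

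**Figure D4:**
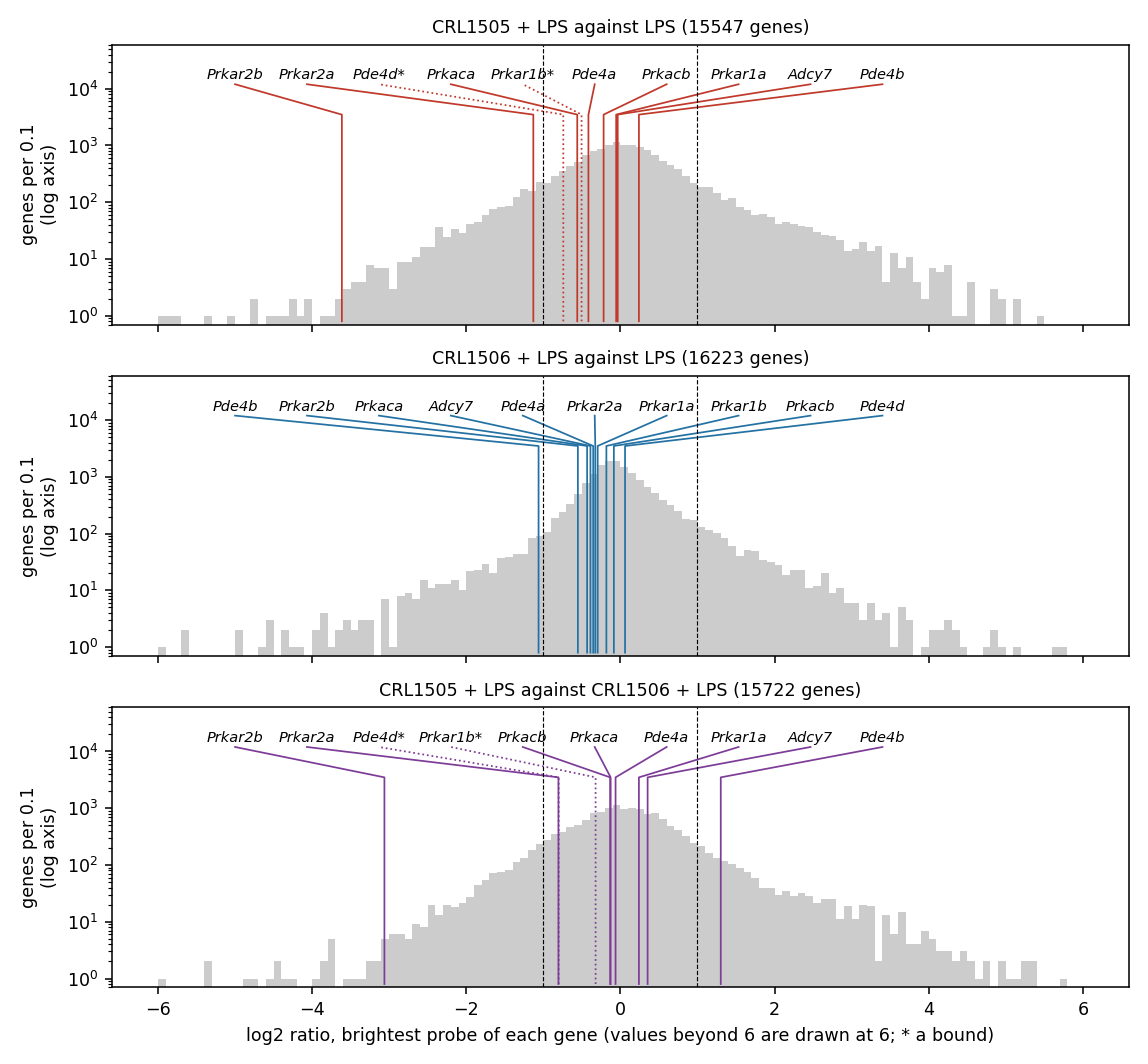
Histograms of the log2 ratio of all genes compared, by the brightest probe of each (grey, log axis), with the 10 members drawn as lines and named at the top of each panel; dotted lines and stars mark bounds, and dashed lines mark 2-fold. *Prkar2b* lies at -3.61 for CRL1505 + LPS against LPS and -3.06 between the strains, and *Pde4b* is the member past 2-fold for CRL1506 + LPS against LPS, at -1.06.

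Other genes of the cAMP pathway were taken as a list of 84, all on the microarray. With CRL1505 + LPS against LPS, 62 could be compared, and 13 of these were higher and 7 lower by 2-fold or more, beside 9.91% and 8.43% of all genes. The split was 6 higher and 11 lower of 64 with scaling to spike-in RNA, where 4.95% and 19.8% of all genes were. It was 16 higher and 5 lower of 60 with scaling by the median, where 16.0% and 5.04% of all genes were. The median log2 ratio of the list was 0.17, against 0.01 over all genes. With CRL1506 + LPS against LPS, 4 of 59 lay 2-fold or more above and 5 as far below, beside 5.65% and 3.54% of all genes, and the median was 0.02, against -0.06 over all genes.

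Among the receptors that feed the pathway, *Ptger4* and *Adora2b* were at least 2-fold lower than with LPS alone with each strain. *Ptger4*, a Gs-coupled receptor for prostaglandin E2, gave 6450 with LPS, 865 with CRL1505 + LPS and 2166 with CRL1506 + LPS, and log2 ratios of -2.38 and -1.48 against LPS. *Adora2b*, a Gs-coupled adenosine receptor, had ratios of -1.38 and -2.11. Of the 15 receptors listed, 7 could be compared with each strain, and none was at least 2-fold higher. Of all genes, 9.91% were higher with CRL1505 + LPS and 5.65% with CRL1506 + LPS. None of the 3 compared G protein α subunits reached 2-fold, where 18.3% and 9.18% of all genes did. *Gnas*, which encodes Gsα, had ratios of 0.33 and -0.32.

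Of the 7 compared adenylyl cyclases other than *Adcy7*, 3 were higher (*Adcy1*, *Adcy2* and *Adcy10*) and 2 lower (*Adcy6* and *Adcy9*) by 2-fold or more with CRL1505 + LPS than with LPS. Of all genes, 9.91% were higher and 8.43% lower. *Adcy6* gave 119 with LPS, 36.7 with CRL1505 + LPS and 192 with CRL1506 + LPS, and log2 ratios of -1.18 and 0.78. *Adcy9* gave 299.9, 85.0 and 227, and ratios of -1.30 and -0.31. *Adcy10*, the soluble cyclase, was dim and gave 48.2, 76.0 and 66.9, and ratios of 1.18 and 0.56. Its other probes were above background on no array. *Adcy1* and *Adcy2* were above background with CRL1505 + LPS alone, but on uneven spots, and other probes of both genes were above background on no array.

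Of the other phosphodiesterases that act on cAMP, 3 of 11 were at least 2-fold higher with CRL1505 + LPS than with LPS (*Pde1c*, *Pde8b* and *Pde10a*) and none was lower, beside 9.91% and 8.43% of all genes. With CRL1506 + LPS against LPS, 3 of 10 were at least 2-fold higher (*Pde1c*, *Pde7a* and *Pde8b*), and *Pde3a*, on an uneven spot of the LPS array, was at least 2.01-fold lower. Of all genes, 5.65% were higher and 3.54% lower in that comparison. *Pde10a* gave 1594 with LPS, 3134 with CRL1505 + LPS and 2153 with CRL1506 + LPS, so it was 2.83-fold and 1.44-fold higher than with LPS. *Pde8b* had ratios of 1.37 and 1.11 at its brightest probe, while a dimmer probe had a bound of -0.52 with CRL1505 + LPS and a ratio of 0.02 with CRL1506 + LPS. *Pde1c* had ratios of 1.05 and 2.68, at the sole one of its 4 probes above background. *Pde7a* had ratios of -0.13 and 1.01. *Pde4c*, the PDE4 gene outside the members, was counted in this group and had ratios of 0.26 and 0.58 at its brightest probe.

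*Prkx* encodes a kinase related to the catalytic subunits of PKA. Its brightest probe gave 3174 with LPS, 4628 with CRL1505 + LPS and 3355 with CRL1506 + LPS, and log2 ratios of 1.07 and 0.17. Its other probes did not go the same way. A probe with a signal of 537 with LPS had ratios of 1.54 and 0.01, and a dimmer probe (63.7 with LPS) had ratios of 0.39 and 1.23. Of the 12 compared A-kinase anchoring proteins, which tether the regulatory subunits, *Akap9* (1.21) and *Akap6* (1.02) were at least 2-fold higher with CRL1505 + LPS than with LPS, beside 9.91% of all genes. *Akap6* was dim, with 40.6 with LPS and 57.3 with CRL1505 + LPS. Another *Akap6* probe was above background with LPS alone (39.8, an uneven spot) and gave 7.01 with CRL1505 + LPS. *Akap7* (1.33) was at least 2-fold higher with CRL1506 + LPS, beside 5.65% of all genes, where its other probes had ratios of -0.19 and -0.37. None of the 8 genes of the CREB family and its coactivators reached 2-fold with either strain, where 18.3% and 9.18% of all genes did. *Rapgef4*, another cAMP effector, was above background with LPS alone at its brightest probe, on an uneven spot. Another of its probes was above background with CRL1505 + LPS alone (55.3, against 7.65 with LPS and 7.93 with CRL1506 + LPS), so no direction is given for the gene.

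Of 10 compared genes known as CREB targets, 4 were higher and 1 was lower by 2-fold or more with CRL1505 + LPS than with LPS, beside the shares of all genes given above. *Nr4a1*, a nuclear receptor of the immediate-early genes, gave 1081 with LPS, 3595 with CRL1505 + LPS and 1069.8 with CRL1506 + LPS, a log2 ratio of 2.26 with CRL1505 + LPS. *Dusp1*, a MAP kinase phosphatase, had a ratio of 2.06, and *Fos*, a subunit of AP-1, of 1.76. *Thbs1*, the fourth, was measured on an uneven spot, and *Fosb* was at least 2.35-fold lower. With CRL1506 + LPS against LPS, none of 9 reached 2-fold, where 9.18% of all genes did, and *Nr4a1*, *Dusp1* and *Fos* had ratios of 0.07, 0.72 and 0.13. The CREB targets also respond to signals other than cAMP.

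**Figure D5:**
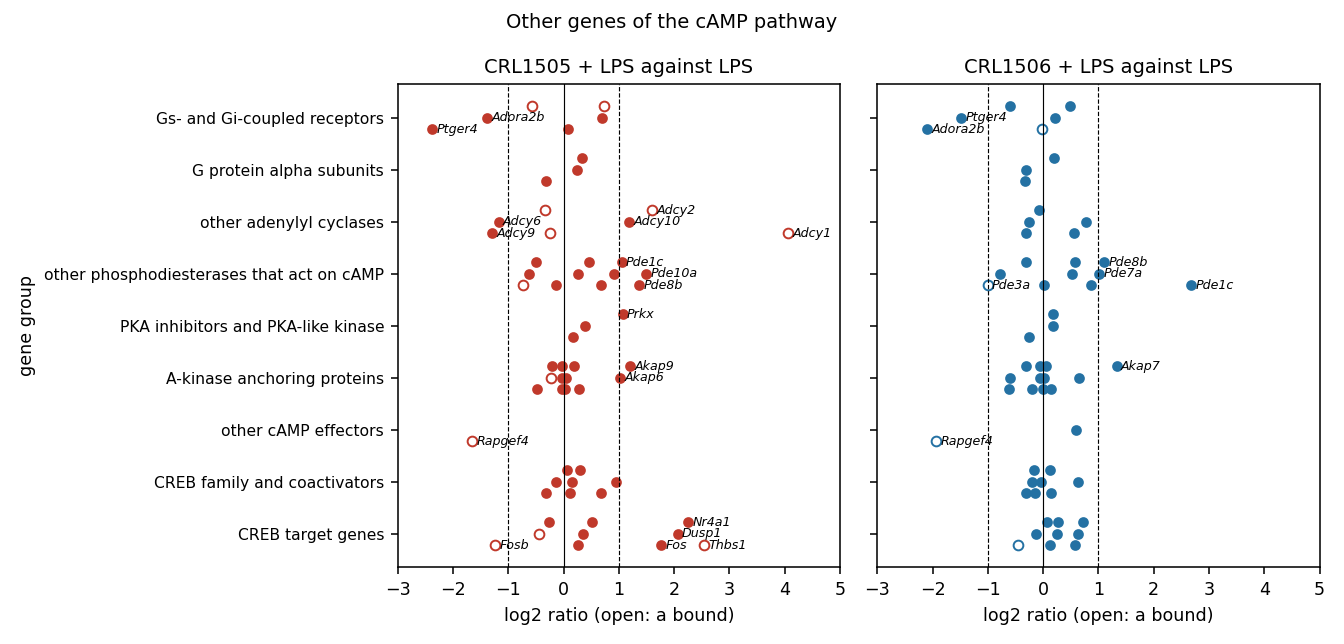
log2 ratio against LPS of the other cAMP pathway genes reported here that could be compared, 1 point per gene by group, with open circles for bounds and dashed lines at 2-fold; the genes drawn past 2-fold are named. *Ptger4* and *Adora2b* lie below -1 with both strains, and *Nr4a1*, *Dusp1* and *Fos* lie above 1 with CRL1505 + LPS alone.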

How the data were processed

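Total RNA labelled with Cy3 was measured on 3 arrays with 62976 spots. The authors deposited the intensity of each spot from Agilent Feature Extraction, as a processed signal with background subtracted (the files carry version 12.0.3.1), and a table of log2 values normalized between arrays, whose method is not given in the sources used here. The log2 processed signal was set relative to the 75th percentile of all gene spots on that array. Outlier spots were left out, no gene spot was saturated, and each gene was represented by its brightest probe. A ratio was taken as a bound where 1 side was not well above background, and left out where neither was. The threshold of 2-fold is that of the study's methods, whose t-test needs replicates.

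The number of arrays limits the precision. The log2 ratios of repeated spots had a median SD of 0.048, 0.043 and 0.047 for CRL1505 + LPS against LPS, CRL1506 + LPS against LPS and CRL1505 + LPS against CRL1506 + LPS. The text names all 10 members, the 5 genes closest to *Prkar2b* in its ratios against LPS, and genes of the pathway list past 2-fold with either strain. *Gnas* was chosen after its values were seen, and so was *Pde4c*, as the PDE4 gene outside the members. Some genes of the pathway and marker lists are counted with their lists but their values are not reported here. The members and lists were chosen with earlier results of these data known. Alternatives were scaling by the median, by spike-in probes or over detected spots, quantile and cyclic loess normalization, normexp, the deposited table, other filters on dim, outlier or uneven spots, the mean over probes, and thresholds of 1.5-fold and 4-fold. A spot was called uneven where its mean pixel signal exceeded its median by more than 0.2 (log2). Python 3.11.15, pandas 2.3.3, NumPy 2.4.6, R 4.3.3 and limma 3.58.1 were used, and the procedure was tested on simulated data.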

Additional observations from a re-analysis of the deposited data

How the results depend on the processing

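No paired analysis was possible because each condition has 1 array. Depth is not defined for arrays; the number of arrays, and signals near background for *Prkar1b* and *Pde4d*, limit what can be compared. Of the members' single ratios under the alternatives, 279 moved by less than the spread between probes of a gene, 70 moved by more, and none that was past 2-fold changed sign. The 279 include ratios that the filters on dim, outlier or uneven spots left unchanged. The cause of these shifts was not tested.

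For CRL1505 + LPS against LPS, members past 2-fold numbered 2, against 1 with scaling by the median, 5 (all lower) with scaling to spike-in RNA, and 1 at 4-fold. With scaling to spike-in RNA, 19.8% of 16009 genes were at least 2-fold lower. Among the 5 lower members there, *Prkar1b* and *Pde4d* had bounds. With scaling by the median, 5.04% of all genes were lower. For CRL1506 + LPS against LPS, the count was 1, against 0 with cyclic loess, with the percentile over detected spots, with normexp and quantile normalization, with the deposited table, with the mean over probes, and at 4-fold. Between the strains it was 2, against 4 (1 higher, 3 lower) with the percentile over detected spots, 1 with the mean over probes, 4 at 1.5-fold and 1 at 4-fold. With the percentile over detected spots, 6.52% of all genes were higher and 11.3% lower between the strains.

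For the pathway list, 20 genes were past 2-fold for CRL1505 + LPS against LPS, against 10 (8 higher, 2 lower) with normexp and quantile normalization, 11 (9 higher, 2 lower) with the deposited table, 31 (16 higher, 15 lower) with no filter on dim probes and 5 at 4-fold. Of all genes, 6.37% were higher and 4.84% lower with normexp and quantile normalization. These shares were 6.18% and 4.89% with the deposited table, and 8.34% and 13.8% with no filter. For CRL1506 + LPS against LPS it was 9, against 5 with normexp and quantile normalization, 4 with the deposited table, 15 with no filter, 20 at 1.5-fold and 2 at 4-fold. Between the strains it was 12, against 23 (20 higher, 3 lower) with scaling by the median, 6 with normexp and quantile normalization, 6 with the deposited table, 7 with probes above background on all arrays, 26 at 1.5-fold and 3 at 4-fold. With scaling by the median, 23.6% of all genes were higher and 2.91% lower between the strains.

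Scaling also moved the share of higher genes among all genes past 2-fold. For CRL1505 + LPS against LPS, it was 54.0%, against 76.0% with scaling by the median and 20.05% with scaling to spike-in RNA. For CRL1506 + LPS against LPS, it was 61.5%, against 43.3% with scaling by the median and 51.4% with quantile normalization. Between the strains, it was 54.7%, against 89.0% with scaling by the median and 23.1% with scaling to spike-in RNA. Without bounds, the median of all genes was 0.06, -0.06 and 0.09 in the 3 comparisons. These scalings moved it to 0.35, -0.27 and 0.58 (median) and to -0.45, -0.17 and -0.31 (spike-in).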
